A study of Mus musculus with 2 samples.

Results

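The nuclear genes of oxidative phosphorylation are the genes of the cell nucleus that encode subunits of the 5 protein complexes of the mitochondrial inner membrane that make most ATP. They were chosen by symbol, as every listed gene named Ndufa, Ndufb, Ndufc, Ndufs or Ndufv with a number (complex I), Sdha to Sdhd (complex II), Uqcr (complex III), Cox4 to Cox8 (complex IV) or Atp5 (complex V, the ATP synthase). Assembly factors (Ndufaf) were left out. The rule found 84 of the 32285 genes in the deposited tables. Of these, 37 fell in complex I, 4 in complex II, 8 in complex III, 18 in complex IV and 17 in complex V. The symbols are the older ones, so that the 3 genes of the membrane ring subunit c of ATP synthase are Atp5g1, Atp5g2 and Atp5g3. Ndufa4 and Ndufa4l2 were counted with complex I by their symbols, although NDUFA4 is also described as a subunit of complex IV.

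Complexes I to IV pass electrons to oxygen and, except for complex II, pump protons, and ATP synthase uses the proton gradient. A core of 13 subunits is encoded by mitochondrial DNA, and all others come from the nucleus, so every cell needs both genomes. Some nuclear subunits exist as tissue isoforms, such as the heart and muscle forms Cox6a2, Cox7a1 and Cox8b, the lung and hypoxia form Cox4i2, and Ndufa4l2, a paralogue of Ndufa4 known to be induced by low oxygen. Fast-firing sensory neurons spend much ATP on restoring ion gradients.

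The cells came from dorsal root ganglia, which hold the cell bodies of sensory neurons, taken from all axial levels of mice at postnatal day 4. The cKO library came from mice with both Ptges3 alleles floxed (Ptges3 encodes p23, a cochaperone of HSP90 to which prostaglandin E2 synthesis is also ascribed) that carried Dhh CRE, a Cre driven by desert hedgehog sequence and active in the Schwann cell lineage. The flox library came from mice with the same floxed alleles. There was 1 library per genotype, and how many animals were pooled is not stated. No difference below therefore has a replicate check, none was tested, and all 95% intervals cover counting error only.

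The cKO library held 9703 barcodes and 78144437 UMIs (unique molecular identifiers, tags that mark single RNA molecules), and the flox library 10014 barcodes and 132620886 UMIs. After filters and doublet removal there were 7866 cKO and 8107 flox cells, with medians of 4319.5 and 6886 UMIs. The libraries shared 23 barcodes. Cells were sorted into classes by marker scores, which left 913 cKO and 657 flox cells without a class. The markers found in a class describe its gate, since the same markers set it. All 12 neuron markers and all 9 mural markers were found in at least 25% of their cells in both libraries. So were 9 of 10 myelinating Schwann markers in cKO cells and 10 of 10 in flox cells. Satellite glia had 6 of 8 in cKO and 7 of 8 in flox cells. The glia that were neither cycling, myelinating nor satellite cells had 3 of 8 and 4 of 8 immature Schwann markers, which set no gate. Ptges3 stood at 107 CPM (UMIs scaled per 1e+06 UMIs of the class) in cKO and 215 CPM in flox myelinating Schwann cells, and at 129 and 233 CPM in satellite glia. Which exons are floxed is not stated, and a count from the 3′ end need not report the deletion. Oligodendrocytes (275) and astrocytes (146), cells of the spinal cord, were found in the flox library and not in the cKO library. Gm42418, a gene that overlaps ribosomal RNA sequence, stood at 5602 CPM in cKO and 574 CPM in flox neurons, so the libraries differed in their RNA make-up.

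The 84 genes lay on 19 of the 20 autosomes and X, with 3 on X. Their median transcript was 724 nucleotides long (from 321.5 to 2900), against 2613 for the genes measured in neurons, so short mRNA is a trait they share that the rule did not use. A gene on the same strand overlapped 12 of them, among them Cox7c, Cox4i1, Atp5b and Atp5g2, and reads of these and of genes with near-identical pseudogenes may have been divided in counting.

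Start regions were read from RefSeq (GRCm38.p6), in windows from 250 bases before to 50 after the start, for 68 of the 84 members. The motif of NRF1, a factor known for its sites in respiratory chain genes (CGCATGCG, the same on both strands), lay in 8 of the 68 windows (11.8%), and in 517 of all 27025 windows (1.91%). The ETS motif (CCGGAAG, both strands, like the next) lay in 16 of 68 (23.5%) and in 9.12% of all windows. The YY1 motif (AAGATGGCG) lay in 6 of 68 (8.82%) and in 1.49% of all, and the half-site of the oestrogen-related receptors (TCAAGGTCA) in 2 of 68 (2.94%) and in 0.407% of all. No overlap between the motifs was removed, and a match describes letters only. The 250 bases before the start are shown for 4 members whose RNA levels the results below turn on, Atp5k and Cox6a1 with the pair of subunit c genes Atp5g1 and Atp5g2. They are printed along the gene's strand, 5′ to 3′, with matches in capitals.
Atp5k, chr5:108434400-108434649, minus strand: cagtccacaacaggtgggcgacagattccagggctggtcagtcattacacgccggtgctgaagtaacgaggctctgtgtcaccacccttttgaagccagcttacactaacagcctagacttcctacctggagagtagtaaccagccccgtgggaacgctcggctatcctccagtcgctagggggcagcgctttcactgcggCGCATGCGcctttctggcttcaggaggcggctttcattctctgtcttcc
Cox6a1, chr5:115348959-115349208, minus strand: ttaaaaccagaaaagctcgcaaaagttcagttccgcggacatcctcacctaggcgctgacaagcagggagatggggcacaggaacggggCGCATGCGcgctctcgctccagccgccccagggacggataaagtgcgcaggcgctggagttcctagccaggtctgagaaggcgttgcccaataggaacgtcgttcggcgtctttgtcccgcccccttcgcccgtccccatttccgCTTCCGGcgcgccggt
Atp5g1, chr11:96075632-96075881, minus strand: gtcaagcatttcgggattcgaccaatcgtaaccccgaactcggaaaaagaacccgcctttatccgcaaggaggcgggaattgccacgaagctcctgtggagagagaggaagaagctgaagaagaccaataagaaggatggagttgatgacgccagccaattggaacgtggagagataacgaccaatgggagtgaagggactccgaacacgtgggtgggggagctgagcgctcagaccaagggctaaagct
Atp5g2, chr15:102671048-102671297, minus strand: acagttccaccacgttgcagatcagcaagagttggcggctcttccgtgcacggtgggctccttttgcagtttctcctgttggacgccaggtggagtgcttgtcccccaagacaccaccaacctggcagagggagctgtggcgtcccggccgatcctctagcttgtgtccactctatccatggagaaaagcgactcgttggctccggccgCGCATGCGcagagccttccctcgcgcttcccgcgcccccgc
The NRF1 letters began 49 bases before the start of Atp5k, 161 before that of Cox6a1 and 41 before that of Atp5g2. Cox6a1 also held the ETS letters on the other strand, 16 bases before its start. Atp5k had an ETS match too, in its window that runs to 50 bases after the start, but not wholly within the bases shown. The upstream window of Atp5g1 held none of the 4 motifs, although Atp5g1 and Atp5g2 encode the same mature ring subunit.

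Neurons gave more of their RNA to the 84 genes than any glial or stromal class. The summed share of all UMIs was 4.74% in cKO and 4.38% in flox neurons. The 4 glial classes lay between 3.09% and 3.33% in cKO cells and between 2.72% and 3.03% in flox cells. Macrophages were low in both libraries, at 2.35% and 2.18%, and endothelial cells stood at 2.11% in cKO and 2.53% in flox cells. Fibroblasts stood at 2.65% and 2.45%, and mural cells, the pericytes and smooth muscle of vessels, at 3.21% and 3.40%. Flox astrocytes had 3.63% and flox oligodendrocytes 2.90%. The lowest class was the endothelial one in cKO and the macrophage one in flox cells.

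**Figure D1:**
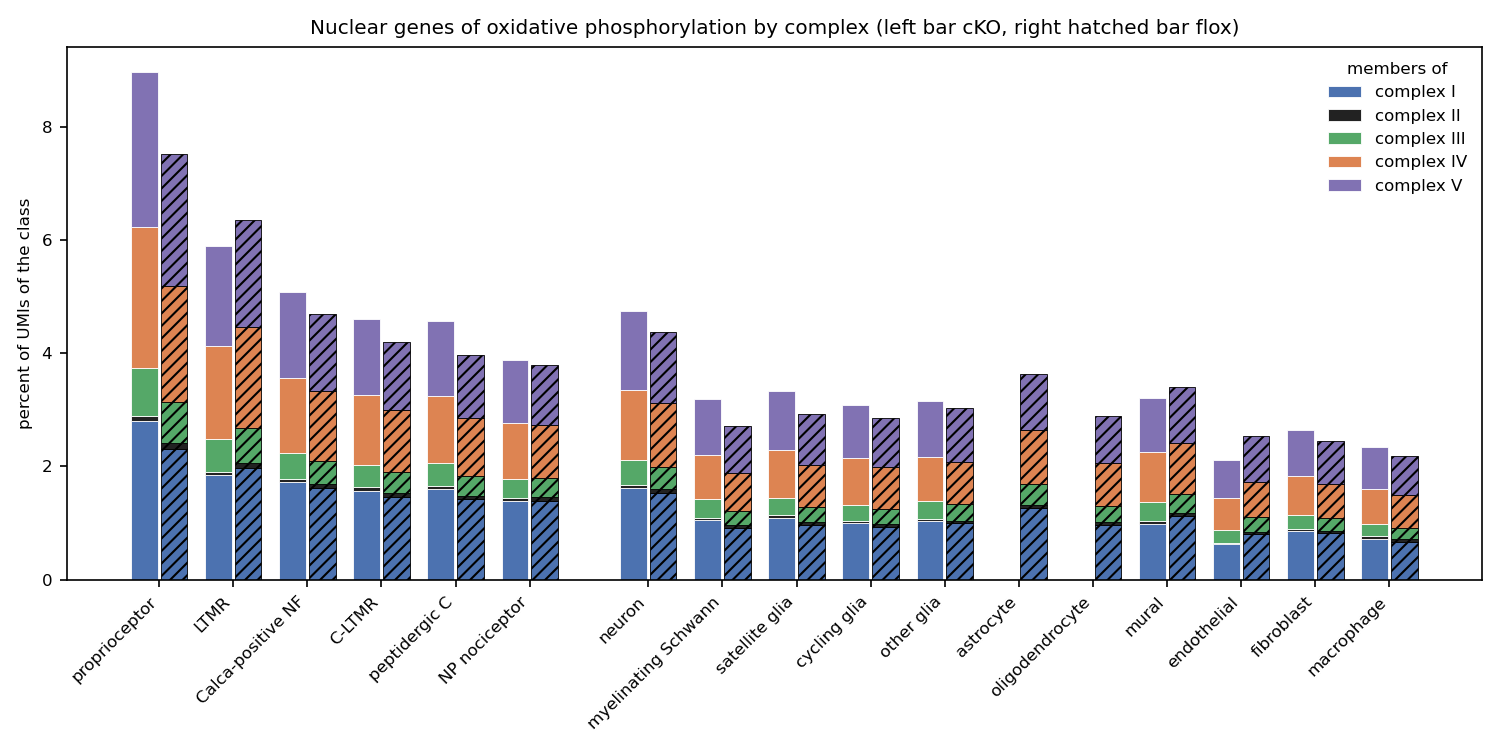
Share of a class's UMIs (percent) in the 84 nuclear genes of oxidative phosphorylation, stacked by complex, for 6 neuron subtypes and for all classes, with the cKO library as the left bar and the flox library as the right, hatched bar. Proprioceptors have the highest bars, at 8.97% in cKO and 7.53% in flox cells, followed by LTMR at 5.90% and 6.36%. Astrocytes and oligodendrocytes have a flox bar only.

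By complex, neurons gave 1.62% of UMIs in cKO and 1.53% in flox cells to complex I, 0.060% and 0.073% to complex II, 0.429% and 0.391% to complex III, 1.24% and 1.14% to complex IV, and 1.39% and 1.25% to complex V. One gene of each complex, the one with the highest neuron level, shows the class pattern. Ndufa4 stood at 2109 CPM in cKO and 2121 CPM in flox neurons, and at 767 and 707 CPM in the glia that were neither cycling, myelinating nor satellite cells (other glia). Sdhb, the iron-sulphur subunit of succinate dehydrogenase, had 294 CPM in cKO and 400 CPM in flox neurons, and 163 and 212 CPM in other glia. Uqcrq, a small subunit of complex III, had 877 and 786 CPM in neurons, and 574 and 490 CPM in other glia. Cox7c of complex IV showed a smaller gap, with 2140 CPM in cKO and 1508 CPM in flox neurons, and 1629 and 1187 CPM in other glia. In satellite glia Cox7c came close to the neurons, at 2020 and 1363 CPM. Atp5g1 had 1442 and 1365 CPM in neurons, and 698 and 641 CPM in other glia. These genes were chosen by their neuron level, so the neuron values are a description.

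For neurons over other glia the summed share differed by 0.58 on the log2 scale in the cKO and by 0.53 in the flox library. A member was called higher or lower at 0.5 log2 or more, with at least 50 UMIs over the cells compared. In cKO cells 47 of 82 measured members were higher in neurons and 1 lower, where 43.6% of all measured genes were higher and 30.7% lower. In flox cells 45 of 82 were higher and 2 lower, where 41.0% of all were higher and 32.8% lower. These shares of higher members lie not far above the background, while lower members were few. Ndufa4 was higher by 1.46 in cKO and 1.58 in flox cells, Ndufa5 by 1.41 and 1.39, and Cox5a by 1.29 and 1.31. Cox6b2 was lower in both libraries, at -1.13 and -1.39, and Atp5g2 at -0.27 and -0.55. The 13 subunit genes of mitochondrial DNA went the other way, with a median of -0.37 in cKO and -0.59 in flox cells (6 and 9 of 13 lower, none higher). Ribosomal protein genes were lower in neurons for 69 of 80 in cKO and 74 of 80 in flox cells. Free RNA and the mitochondrial cut at 15% can move the mitochondrial counts, and their part was not tested.

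The 4 glial classes hardly differed among themselves. Against other glia, at most 2 members were higher and at most 1 lower in myelinating Schwann, satellite or cycling glia in either library, of 76 to 78 measured. Of all genes, 11.6% in cKO and 11.7% in flox myelinating Schwann cells were higher and 22.7% and 36.3% lower. In satellite glia 15.9% and 15.2% were higher and 9.83% and 7.56% lower, and in cycling glia 17.7% and 14.5% higher and 14.7% and 15.8% lower. Flox astrocytes were higher than flox other glia for 15 of 77 members and lower for 0, where 26.3% of all genes were higher and 27.7% lower, with Ndufc2 at 1.15 and Ndufa1 at 1.09. Mural cells were higher than fibroblasts for 20 of 79 members (3 lower) in cKO and 37 of 80 (0 lower) in flox cells, where 22.8% and 19.7% of all genes were higher and 32.0% and 30.8% lower. Cox8a, the common subunit 8, was higher by 1.06 and 0.98, and the catalytic ATP synthase subunit gene Atp5b by 0.98 and 0.94. Endothelial cells were lower than fibroblasts for 24 of 78 members in cKO and 5 of 80 in flox cells, where 34.9% and 29.2% of all genes were lower. They were higher for 2 and 5 members, where 27.2% and 23.7% of all genes were.

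Proprioceptors, the Pvalb neurons that report muscle stretch, had the highest share of all groups of cells, 8.97% (8.91 to 9.04) in cKO and 7.53% (7.48 to 7.58) in flox cells. They were 42 cKO and 46 flox cells, chosen by 7 markers of which 6 in cKO and 7 in flox cells were found in at least 25% of them, with Pvalb in 95% and 96%. Myelinated low-threshold mechanoreceptors (LTMR), which report touch, came next with 5.90% and 6.36%. Calca-positive neurofilament neurons had 5.08% and 4.69%, C-LTMR 4.61% and 4.20%, and peptidergic C neurons 4.58% and 3.97%. Non-peptidergic (NP) Mrgprd nociceptors had the least of these subtypes, 3.88% (3.87 to 3.89) in cKO and 3.79% (3.78 to 3.80) in flox cells. The order of the subtypes was the same in both libraries. No subtype was given to 1321 of 3066 cKO neurons (43.1%) and 287 of 1566 flox neurons (18.3%). Those neurons, with median depths of 7035 and 30372 UMIs, are in none of the subtype values here or below. C-LTMR and peptidergic C neurons were close in cKO cells. Th was found in only 10% of cKO and 17% of flox cells of the C-LTMR gate, whose other 4 markers were found.

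Single cells showed the same gap. Per cell, the median share in proprioceptors was 9.16% in cKO cells, with quartiles of 8.20% and 11.2%, and 7.68% in flox cells (6.09% to 8.73%). In NP nociceptors it was 3.91% in cKO cells (3.48% to 4.31%) and 3.78% in flox cells (3.45% to 4.02%). These ranges did not meet, although cells of 1 library are not replicates. In LTMR the quartiles were 5.05% and 6.76% in cKO cells, and 5.48% and 6.94% in flox cells. The LTMR range overlapped that of proprioceptors in the flox library and not in the cKO library. Proprioceptors were shallower than NP nociceptors, with medians of 13667 UMIs in cKO and 21445 in flox cells against 31307 and 55525. RNA of glial marker genes was also higher in proprioceptors. The 10 myelinating Schwann markers summed to 1311 and 3513 CPM in proprioceptors and to 690 and 823 CPM in NP nociceptors. The 9 glial markers summed to 1846 and 3951 CPM against 327 and 348 CPM. In LTMR the same 9 markers summed to 1860 and 2448 CPM. One of these 9, S100b, was the leading gene of LTMR among the subtypes, and whether this RNA came from glia was not tested. The 5 erythroid (red blood cell) markers summed to 45.2 and 1029 CPM in proprioceptors and to 23.5 and 20.9 CPM in NP nociceptors. The 10 cycling markers summed to 110 and 321 CPM against 33.4 and 27.6 CPM. Of these 10, 8 were found in at least 25% of flox proprioceptors and 0 in that many cKO ones. The part of depth and of RNA from other cells in the difference was not tested.

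Proprioceptors exceeded NP nociceptors by 1.21 log2 in the summed share in cKO cells and by 0.99 in flox cells. In cKO cells 72 of 77 measured members were higher in proprioceptors and 0 lower, with a median of 1.10, where 19.6% of all measured genes were higher, 34.9% were lower and the median of all was -0.20. In flox cells 65 of 80 were higher and 2 lower, with a median of 0.92, where 28.8% of all were higher, 26.5% were lower and the median of all was 0.02. All 5 complexes took part. In cKO cells 33 of 36 members of complex I, 4 of 4 of complex II, 8 of 8 of complex III, 10 of 12 of complex IV and 17 of 17 of complex V were higher. In flox cells the counts were 27 of 36, 3 of 4, 7 of 8, 12 of 15 and 16 of 17. Among the 6 subtypes named above, 77 of the 84 members had their highest level in proprioceptors in the cKO library, 71 in the flox library and 69 in both. No count minimum was applied here, and the same count was not made over all genes, so it has no background.

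**Figure D2:**
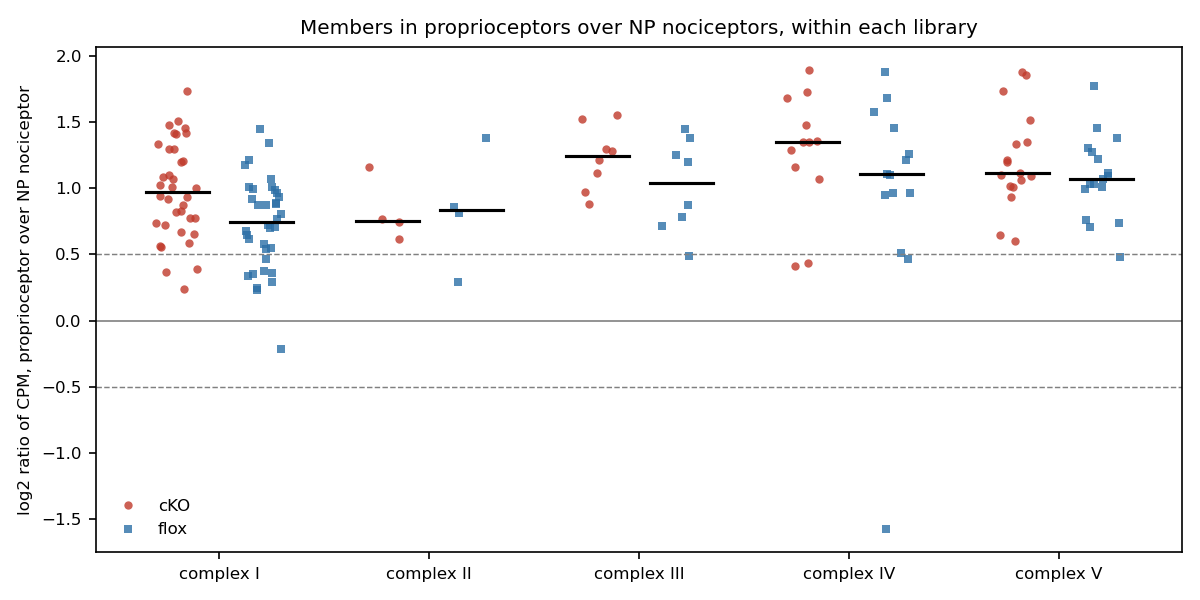
Log2 ratio of CPM, proprioceptors over NP nociceptors, with 1 point for each measured member, by complex, in the cKO (circles) and the flox library (squares); black bars are medians over the points and dashed lines mark 0.5 to either side of 0. Most points lie above 0.5 in every complex, and the lowest flox point is Cox4i2 at -1.58, found in 1 of 46 flox proprioceptors. Cox7b2, with no UMI in flox proprioceptors, is not drawn.

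Atp5g1 showed the gradient. It stood at 3971 CPM in cKO and 3628 CPM in flox proprioceptors, at 2097 and 2494 CPM in LTMR, at 1508 and 1489 CPM in Calca-positive neurofilament neurons, at 1413 and 1289 CPM in C-LTMR, at 1202 and 975 CPM in peptidergic C neurons, and at 1080 and 1061 CPM in NP nociceptors. Proprioceptors over NP nociceptors gave 1.88 (1.82 to 1.93) in cKO and 1.77 (1.73 to 1.82) in flox cells. Peptidergic C neurons lay above NP nociceptors in the cKO and below them in the flox library, so the low end of this order was not the same in both.

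Cox5a, a nuclear subunit of complex IV, followed the same order at its top. It had 2693 CPM in cKO and 2476 CPM in flox proprioceptors, 1734 and 2249 CPM in LTMR, and 724 and 832 CPM in NP nociceptors, a difference between the first and the last of 1.89 (1.83 to 1.96) and 1.57 (1.52 to 1.63). The flox LTMR value came close to the proprioceptors, and the cKO value did not. Ndufa4 had 3765 and 3153 CPM in proprioceptors, 2736 and 3249 CPM in LTMR, and 1794 and 1854 CPM in NP nociceptors. In flox cells Ndufa4 was thus slightly higher in LTMR than in proprioceptors. Cox7c had 4279 and 2831 CPM in proprioceptors and 1679 and 1183 CPM in NP nociceptors, and Uqcrq 1778 and 1519 CPM against 723 and 662 CPM. Other members with large differences were Atp5o, the stalk subunit OSCP, at 1.86 and 1.22, Ndufa3 at 1.73 and 1.45, and Cox6c at 1.68 and 1.46.

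Some members were nearly level. Ndufv1, the flavoprotein of complex I that takes electrons from NADH, had 249 CPM in cKO and 259 CPM in flox proprioceptors and 211 and 300 CPM in NP nociceptors, so that the ratio was 0.24 (0.03 to 0.44) in cKO and -0.21 (-0.37 to -0.06) in flox cells. Ndufs4, an accessory subunit of the same arm, gave 0.39 and 0.25. Cox6a1, the common form of subunit 6A, gave 0.41 and 0.47. Sdhb gave 0.62 in cKO and 0.29 in flox cells, with 395 and 484 CPM in proprioceptors and 257 and 395 CPM in NP nociceptors. In flox cells Cox4i2 was lower in proprioceptors, at -1.58, but a UMI was found in only 1 of 46 of them, against 51 of 544 NP nociceptors. In cKO cells a Cox4i2 UMI was found in 2 of 42 proprioceptors and 14 of 505 NP nociceptors, so the lower value was not seen in both libraries. Cox7b2 had no UMI in flox proprioceptors.

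Genes around the chain did not all move with it. Of 13 genes of the citric acid cycle, 12 were higher in proprioceptors than in NP nociceptors in either library, with medians of 0.98 and 1.06, the same backgrounds applying. Citrate synthase, Cs, had 153 CPM in cKO and 199 CPM in flox proprioceptors and 101 and 92.2 CPM in NP nociceptors. Carriers such as Slc25a4, the ADP/ATP exchanger, were higher for 7 of 9 in cKO and 4 of 9 in flox cells, and Slc25a4 itself had 3264 and 3082 CPM against 1990 and 2289 CPM. Assembly factors were higher for 18 of 46 (2 lower) in cKO and 16 of 46 (4 lower) in flox cells. Ribosomal protein genes were higher for 3 of 80 in both libraries. The genes of mitochondrial DNA were higher for 0 of 13 in both, lower for 8 in cKO and 0 in flox cells, with medians of -0.53 and 0.01. The summed mitochondrial share was 1.40% in cKO and 1.11% in flox proprioceptors and 2.01% and 1.20% in NP nociceptors.

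Among known regulators of mitochondrial genes, Ppargc1a, which encodes the coactivator PGC-1α, stood at 34.7 CPM (30 UMIs) in cKO and 55.4 CPM (75 UMIs) in flox proprioceptors, at 26.6 and 24.7 CPM in LTMR, and at 2.60 and 2.17 CPM in NP nociceptors. Its partner Esrra, oestrogen-related receptor alpha, stood at 39.4 and 33.3 CPM in proprioceptors, at 20.4 and 16.4 CPM in LTMR, and at 5.27 and 4.95 CPM in NP nociceptors. Both genes kept the order of the members' share over these 3 subtypes in both libraries. Tfam, which packs mitochondrial DNA, did not show it in both: it had 13.9 CPM in cKO and 30.3 CPM in flox proprioceptors and 15.9 and 13.6 CPM in NP nociceptors. Of the regulators measured, 4 of 12 were higher and 3 lower in cKO proprioceptors, and 7 of 13 higher and 0 lower in flox proprioceptors.

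LTMR also exceeded NP nociceptors. In cKO cells 45 of 79 members were higher and 0 lower, where 23.9% of all genes were higher and 17.9% lower. In flox cells 54 of 81 were higher and 1 lower, where 28.4% and 20.4% were. Calca-positive neurofilament neurons were higher for 21 of 78 in cKO cells and 13 of 80 (2 lower) in flox cells, where 17.9% and 22.5% of all genes were higher and 21.5% and 18.5% lower, so the flox share lay under the background. Peptidergic C neurons were higher for 4 of 78 and 3 of 80 (background 19.9% and 25.5%) and lower for 0 and 4 (16.2% and 14.4%). C-LTMR were higher for 3 of 77 and 3 of 81 (14.8% and 19.2%) and lower for 0 and 2 (15.3% and 13.5%). How far proprioceptors stood above LTMR differed between the libraries: 49 of 79 members were higher and 1 lower in cKO cells (background 10.9% and 28.4%), and 9 of 79 higher and 2 lower in flox cells (background 16.6% and 19.0%).

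Tissue isoforms separated cell classes more than any common subunit did. Each UMI counts 1 molecule whatever the transcript's length, so shares of UMIs between isoforms were compared without a length correction. The overlaps of Cox4i1 and Atp5g2 named above may affect the shares that hold them. Ndufa4l2 (chr10:127514967-127517154) stood at 849 CPM (356 UMIs) in cKO and 679 CPM (598 UMIs) in flox mural cells. It made up 70.2% (66.0 to 74.2) of the UMIs of Ndufa4l2 and Ndufa4 in cKO and 53.6% (50.6 to 56.5) in flox mural cells. Ndufa4 itself had its lowest cKO level there, 360 CPM, and 588 CPM in flox mural cells. Ndufa4l2 was far lower elsewhere, at 55.6 and 111 CPM in endothelial cells, 19.5 and 31.7 CPM in fibroblasts and 1.48 and 1.04 CPM in neurons. Over both libraries it was at least 614-fold higher in mural cells than in macrophages, which had no UMI (against a floor of 3 UMIs over the class). A UMI of it was found in 79.0% of cKO and 89.8% of flox mural cells. That compares with 2.15% and 3.64% of neurons, at median depths of 9396 and 46757 UMIs per neuron and 2440 and 4756 UMIs per mural cell. In cKO myelinating Schwann cells it was found in 0 of 425, which by the floor of 3 allows a share of cells with a UMI of up to 0.706% (exact 95% upper bound 0.864%), and in 0.216% of the flox ones.

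Cox4i2 (chr2:152754173-152765037), the second form of the regulatory subunit 4, was also a mural gene. It stood at 184 CPM (77 UMIs) in cKO and 56.8 CPM (50 UMIs) in flox mural cells, or 15.8% (12.7 to 19.4) and 4.31% (3.21 to 5.64) of the UMIs of Cox4i2 and Cox4i1. The cKO value was higher by 1.69 (1.16 to 2.24). Over both libraries Cox4i2 was at least 466-fold higher in mural cells than in its lowest class. The make-up of the mural cells moved with this difference. Their 5 smooth muscle genes summed to 11251 CPM in cKO and 30426 CPM in flox cells, and their 5 pericyte genes to 4820 and 2854 CPM. In mural cells without a Myh11 UMI, a smooth muscle myosin (78 cKO and 44 flox cells), the Cox4i2 share was 21.1% and 9.86% and the Ndufa4l2 share 90.7% and 76.4%. In those with one (65 and 74 cells), the shares were 12.2% and 3.06%, and 57.6% and 48.3%. Both shares were higher in cKO cells on either side of this split, which was chosen after the values were seen, and the part of the make-up in the difference was not tested further.

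**Figure D3:**
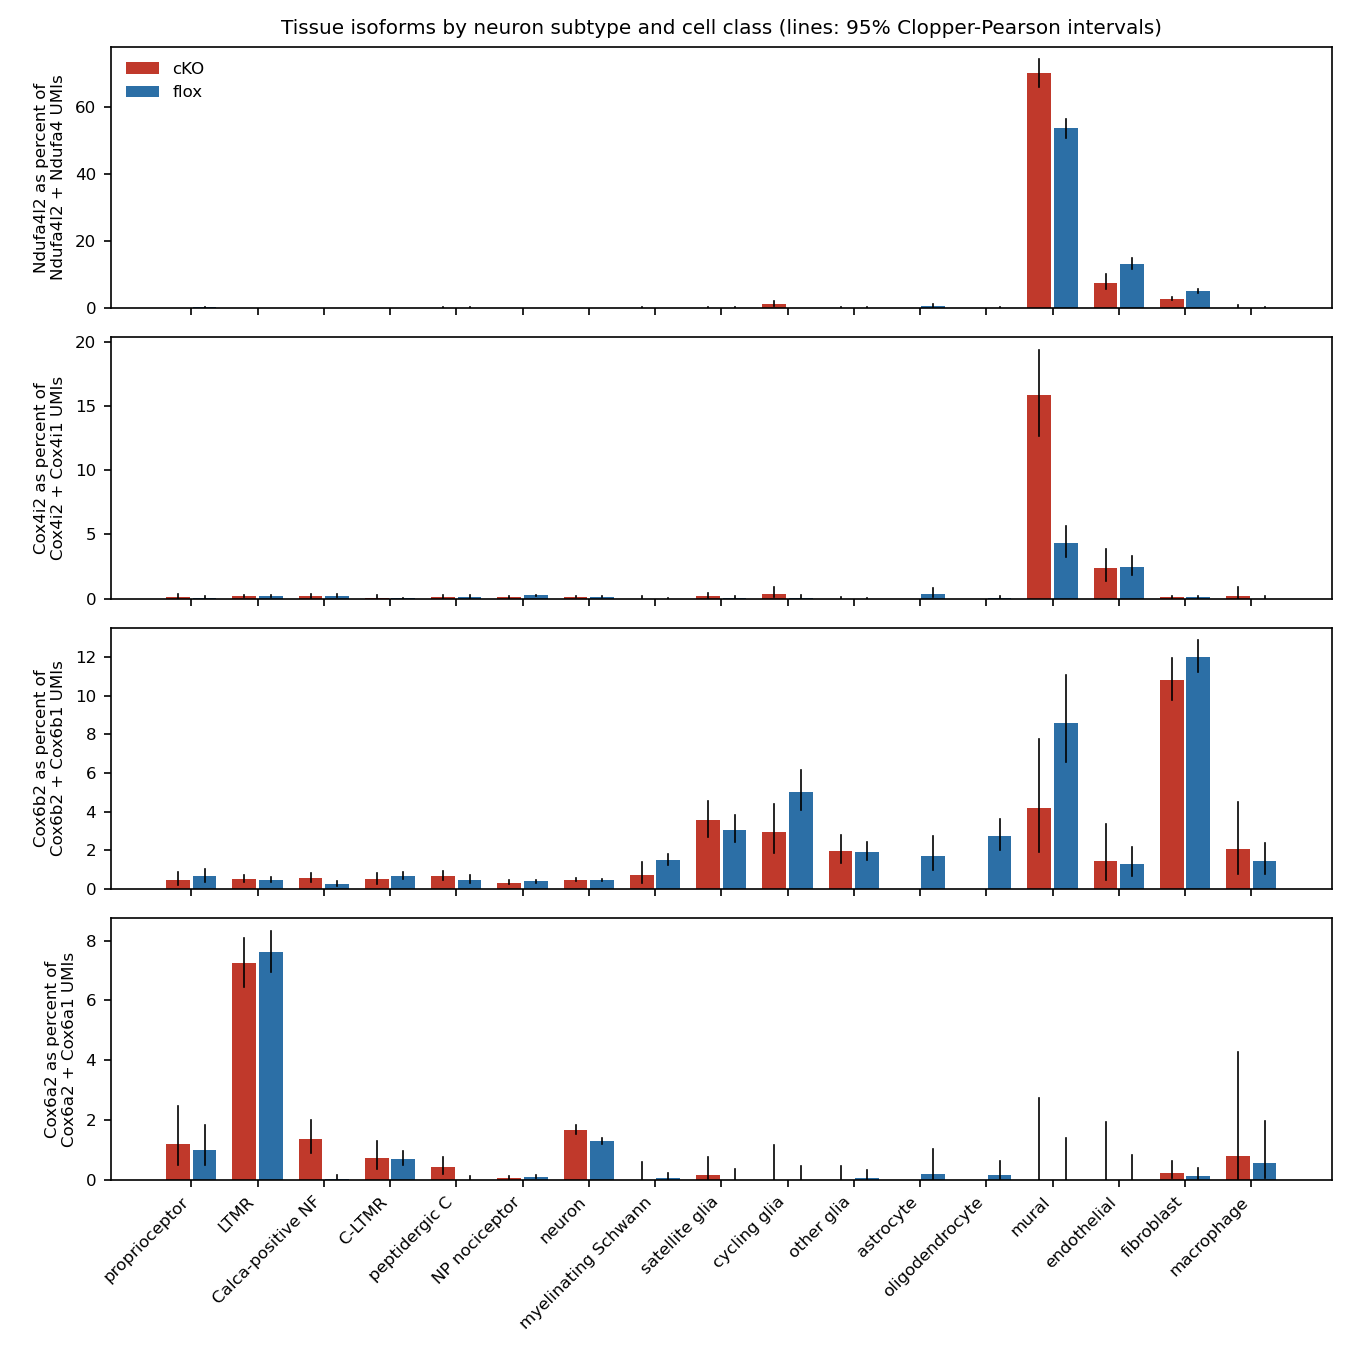
Tissue isoforms as a percent of the UMIs of the isoform and its common form, by neuron subtype and cell class, with cKO and flox bars and lines for 95% Clopper-Pearson intervals. Ndufa4l2 (70.2% in cKO and 53.6% in flox cells) and Cox4i2 peak in mural cells, and, among the subtypes and classes drawn, Cox6b2 in fibroblasts and Cox6a2 in LTMR.

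Cox6b2 (chr7:4751792-4753094), known as the testis form of subunit 6B, was highest in fibroblasts at 53.4 CPM in cKO and 64.6 CPM in flox cells, with flox mural cells close at 62.5 CPM. Erythroid cells (30 cKO and 71 flox cells) were left out of this order, with 61.6 CPM from 6 UMIs in cKO and 32.7 CPM from 13 UMIs in flox cells. It made up 10.8% (9.76 to 12.0) and 12.0% (11.2 to 12.9) of the Cox6b2 and Cox6b1 UMIs there. Over both libraries it was 11.9-fold higher in fibroblasts than in neurons, its lowest class with 5.09 CPM. A UMI was found in 19.5% of cKO and 34.2% of flox fibroblasts, and in 3.92% and 3.10% of macrophages, at median depths of 4687 and 6839 UMIs against 3708 and 4543.

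Cox6a2 (chr7:128205435-128206387), the muscle form of subunit 6A, was found in more LTMR than cells of the other subtypes described. It stood at 43.7 CPM in cKO and 62.3 CPM in flox LTMR, at 8.1 and 7.4 CPM in proprioceptors, and at 0.3 and 0.5 CPM in NP nociceptors. It made up 7.24% (6.45 to 8.09) and 7.61% (6.94 to 8.32) of the Cox6a2 and Cox6a1 UMIs in LTMR, against 1.20% (0.49 to 2.47) and 1.00% (0.48 to 1.83) in proprioceptors. A UMI was found in 32.3% of cKO and 61.4% of flox LTMR, and in 0.594% and 2.21% of NP nociceptors, which were deeper in cKO cells (median 31307 against 13914.5 UMIs). Proprioceptors, which led in nearly all other members, were thus lower than LTMR in this one, by -2.43 log2 in cKO and -3.08 in flox cells. Cox7a1, the muscle form of subunit 7A, was higher in LTMR than in NP nociceptors by 2.70 and 2.83, at 14.8 and 11.4 CPM against 2.3 and 1.6 CPM. Cox7a1 also stood at 11.2 CPM in myelinating Schwann cells over both libraries. Cox7b2 was low everywhere, at most 5.96 CPM over both libraries. The muscle form Cox8b had 11 UMIs and Cox8c 2 UMIs in all the cells of a class.

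The genes of subunit c gave a smaller shift. Atp5g1 made up 57.3% (56.0 to 58.5) in cKO and 58.6% (57.5 to 59.6) in flox proprioceptors of the UMIs of Atp5g1, Atp5g2 and Atp5g3, and 53.2% and 54.2% in LTMR. In NP nociceptors it made up 45.2% (44.7 to 45.8) and 46.4% (46.0 to 46.7). It was 35.95% and 33.14% in myelinating Schwann cells and lowest in endothelial cells, at 23.0% and 20.6%. Neurons thus drew more of this subunit's RNA from Atp5g1 in both libraries, and endothelial and mural cells more from the other two genes. These are shares of RNA, and the mature protein of the 3 genes is the same.

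Between the genotypes the summed share differed by less than 0.3 on the log2 scale in each of the 9 classes. The log2 ratio of cKO over flox was 0.11 (0.11 to 0.12) in neurons, 0.23 (0.22 to 0.25) in myelinating Schwann cells, 0.19 (0.18 to 0.20) in satellite glia, 0.11 (0.09 to 0.13) in cycling glia, 0.06 (0.05 to 0.08) in other glia, 0.11 (0.11 to 0.12) in fibroblasts and 0.10 (0.08 to 0.13) in macrophages. It was -0.26 (-0.29 to -0.24) in endothelial cells and -0.08 (-0.11 to -0.06) in mural cells, and the sign in mural cells turned under 1 alternative. Scaling and depth moved the values: as a mean over cells or after thinning to 1000 UMIs neurons gave 0.22 and 0.20, and over the alternatives fibroblasts ranged from 0.07 to 0.20, satellite glia from 0.13 to 0.29 and myelinating Schwann cells from 0.15 to 0.29. By subtype the ratio was 0.25 (0.24 to 0.27) in proprioceptors, 0.21 in peptidergic C neurons, 0.14 in C-LTMR, 0.12 in Calca-positive neurofilament neurons, 0.03 in NP nociceptors and -0.11 (-0.12 to -0.10) in LTMR. Neurons were shallower in the cKO library, with 51.5% of cKO and 14.6% of flox neurons under 10000 UMIs. Their make-up also differed: NP nociceptors were 16.5% of cKO and 34.7% of flox neurons, and C-LTMR 4.14% and 14.5%. The part of this make-up in the ratios of pooled neurons, of the sum or of single members, was not tested.

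Few members passed 0.5 log2 between the genotypes, and in most classes no larger a share than among all genes. In neurons 4 of 82 members were higher in cKO and 0 lower, where 9.32% of all measured genes were higher and 4.32% lower. In myelinating Schwann cells 11 of 78 were higher and 2 lower, where 13.9% and 15.6% of all genes were. In satellite glia 6 of 78 were higher and 0 lower (6.22% and 16.6%), and in fibroblasts 3 of 79 were higher and 1 lower (8.27% and 18.1%). Cycling glia had 3 higher and 2 lower of 77 (8.50% and 15.1%), other glia 1 and 3 of 77 (9.63% and 19.3%), and macrophages 2 and 2 of 76 (11.9% and 21.2%). Endothelial cells had 0 higher and 22 lower of 78, where 18.9% and 25.4% of all genes were, and mural cells 2 higher and 15 lower of 79, where 16.7% and 25.8% were. Among neuron subtypes, NP nociceptors had 3 members higher and 6 lower of 80 (9.34% and 6.72%), C-LTMR 4 and 1 of 77 (6.22% and 10.3%), and peptidergic C neurons 9 and 0 of 78 (6.15% and 11.3%). Calca-positive neurofilament neurons had 2 and 0 of 77 (7.51% and 10.8%), proprioceptors 7 and 1 of 76 (6.77% and 22.7%) and LTMR 0 and 2 of 79 (6.80% and 5.58%). The medians over members were 0.04 in neurons, 0.11 in myelinating Schwann cells, 0.11 in satellite glia and 0.01 in fibroblasts, and over all genes -0.02, 0.01, -0.11 and -0.10. The background depended on the count minimum. From 200 UMIs up, 3 of 81 members were higher in neurons (5.83% of all genes) and 11 of 76 in myelinating Schwann cells (10.7%). In satellite glia 6 of 76 were higher (4.36%), and in fibroblasts 3 of 78 (6.73%).

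Atp5k, subunit e of ATP synthase, which helps its dimers form, was the member with the highest ratio in all 4 of the main classes, neurons, myelinating Schwann cells, satellite glia and fibroblasts. It stood at 791 CPM in cKO and 483 CPM in flox neurons, a ratio of 0.71 (0.69 to 0.73). In myelinating Schwann cells it had 402 and 229 CPM (0.81, 0.70 to 0.92), in satellite glia 397 and 245 CPM, and in fibroblasts 332 and 209 CPM. Over the 9 classes found in both libraries it was above 0 in 9 and at least 0.5 in 7, with a median of 0.67. Cox7c had 2140 CPM in cKO and 1508 CPM in flox neurons (0.50, 0.49 to 0.52) and was above 0 in 9 classes. Uqcr11, a small subunit of complex III, had 744 and 437 CPM in myelinating Schwann cells (0.77, 0.68 to 0.85). Atp5e, the epsilon subunit, had 1150 and 822 CPM in neurons (0.48) and 1128 and 761 CPM in satellite glia (0.57). Ndufa5, a matrix-arm subunit of complex I, had 261 and 161 CPM in myelinating Schwann cells (0.70, 0.56 to 0.83). Cox6c had 1544 and 1050 CPM in fibroblasts (0.56). Of the 76 members measured in 9 classes, 6 were above 0 in all of them, Atp5k, Cox7c, Uqcr11, Atp5md, Ndufa1 and Atp5g3.

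**Figure D4:**
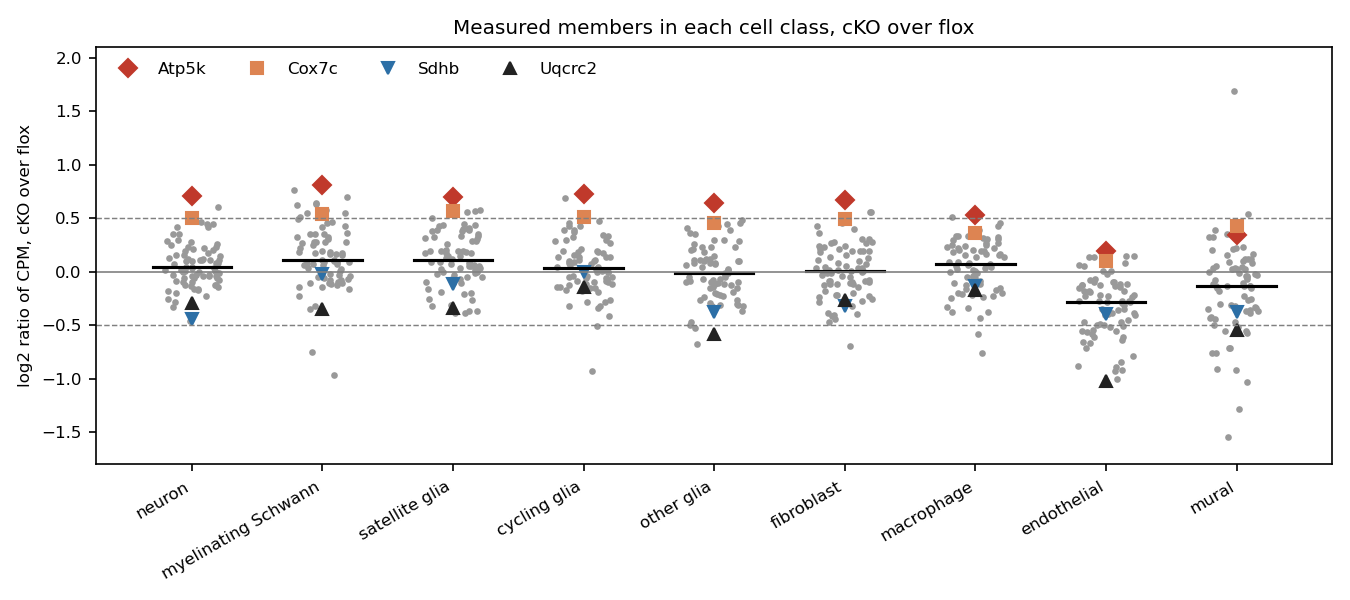
Log2 ratio of CPM, cKO over flox, with 1 point for each measured member in the 9 classes found in both libraries; Atp5k, Cox7c, Sdhb and Uqcrc2 have their own symbols, black bars are medians and dashed lines mark 0.5 to either side of 0. Atp5k lies above 0 and Uqcrc2 below 0 in every class, and the mural point at 1.69 is Cox4i2.

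At the other end stood members whose transcripts were all longer than the members' median. Uqcrc1, a core protein of complex III, had 179 CPM in cKO and 248 CPM in flox neurons (-0.46, -0.50 to -0.43), and Sdhb 294 and 400 CPM (-0.44, -0.47 to -0.41). Atp5d, the delta subunit of ATP synthase, had 831 and 1009 CPM in neurons (-0.28). Uqcrc2, the second core protein, had 112 and 143 CPM in myelinating Schwann cells (-0.35) and 131 and 166 CPM in satellite glia (-0.34), and Uqcrfs1, the Rieske iron-sulphur protein, 147 and 191 CPM in satellite glia (-0.38). In fibroblasts Sdhc had 56.9 and 78.9 CPM (-0.47), and Cox7a2l, a factor in joining complexes III and IV, 181 and 240 CPM (-0.40). Ndufa4l2 was further down there, at 19.5 CPM in cKO and 31.7 CPM in flox fibroblasts (-0.70). Of the same 76 members, 6 were above 0 in no class, Atp5a1, Atp5d, Sdhd, Sdhb, Uqcrc2 and Uqcrfs1. This count, too, was not made over all genes. Complex II as a whole was lower in cKO cells of all 9 classes, for example 0.060% against 0.073% in neurons (-0.28, -0.30 to -0.26) and 0.036% against 0.045% in fibroblasts (-0.32, -0.40 to -0.25). In macrophages its sign turned under 1 alternative. Complexes III, IV and V were higher in cKO neurons, at 0.14, 0.13 and 0.15, and in cKO myelinating Schwann cells, at 0.35, 0.22 and 0.25.

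The members' ratios moved with transcript length. Over the members, Spearman's rho between the log2 ratio of cKO over flox and the median transcript length was -0.43 in neurons (82 genes), -0.49 in myelinating Schwann cells (78), -0.49 in satellite glia (78) and -0.36 in fibroblasts (79), and it was negative in the other 5 classes, from -0.49 to -0.19. The genes of 1 class share their libraries and are not replicates, so these are descriptions. Over genes outside the members rho lay between -0.02 and 0.30. Under 600 nucleotides the median ratio in neurons was 0.13 for 30 members and 0.22 for 373 other genes, and in myelinating Schwann cells 0.31 for 29 members and 0.25 for 184 other genes. Between 1000 and 2000 nucleotides it was -0.04 for 19 members and -0.05 for 3680 other genes in neurons. In myelinating Schwann cells it was -0.03 for 19 members and -0.15 for 2396 other genes. Of the genes under 600 nucleotides, 10.0% of members and 26.5% of other genes were higher in cKO neurons, and 31.0% of members and 21.2% of other genes in cKO myelinating Schwann cells. Atp5k and Sdhb, at opposite ends above, belong to the short and the longer members. The part of RNA quality in the length relation was not tested.

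**Figure D5:**
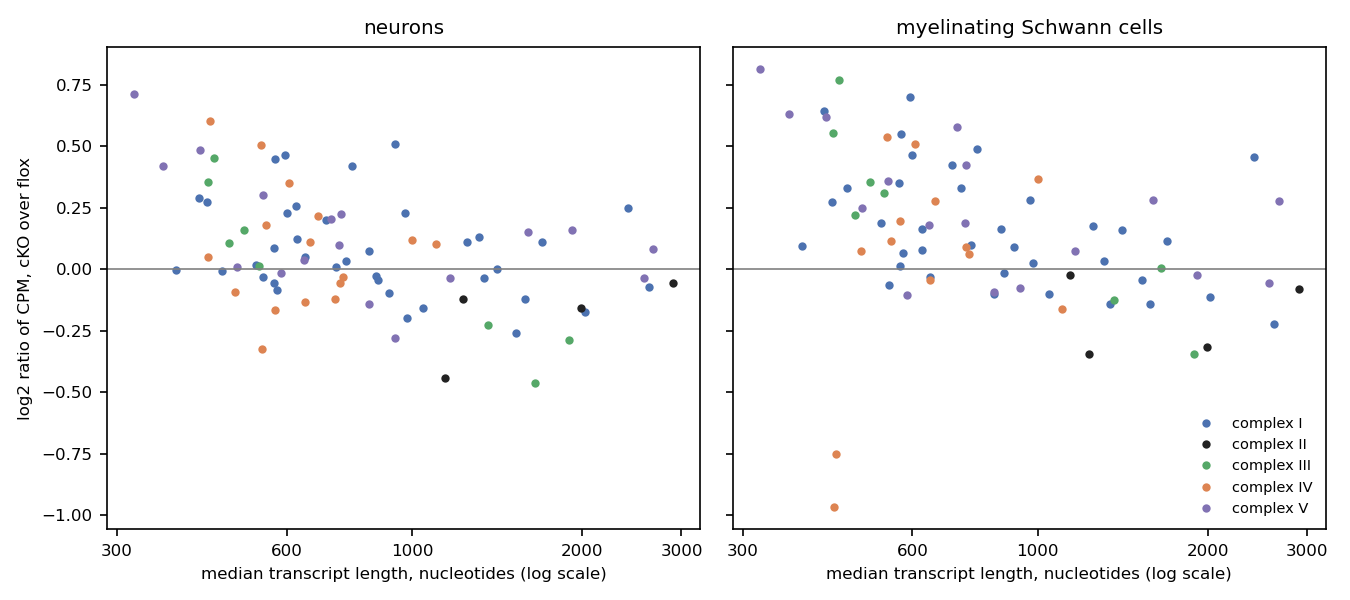
Log2 ratio of CPM, cKO over flox, of each measured member against its median transcript length (nucleotides, log scale) in neurons and in myelinating Schwann cells, coloured by complex. Short members lie above 0 more often than long ones, with rho of -0.43 in neurons and -0.49 in myelinating Schwann cells.

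Other gene lists give the scale of these differences. The 13 genes of mitochondrial DNA had medians of 0.53 in neurons (7 higher, 0 lower), 0.35 in myelinating Schwann cells (5 higher, 0 lower) and 0.34 in fibroblasts (3 higher, 0 lower). The median over the members was smaller in each of these classes. By summed share the order was the reverse in satellite glia (0.10 against 0.19 for the members) and in macrophages (-0.005 against 0.10). In myelinating Schwann cells the sums were close (0.24 and 0.23), and in the other classes the mitochondrial sum was higher. The citric acid cycle genes had 0 of 13 past 0.5 log2 in neurons (median -0.06) and 0 of 12 in myelinating Schwann cells (median -0.20). Assembly factors were higher for 2 of 46 and lower for 0 in neurons, and higher for 5 and lower for 6 of 44 in myelinating Schwann cells. Ribosomal protein genes were higher for 12 of 80 in neurons (median 0.22), 19 of 80 in myelinating Schwann cells (median 0.26), 3 of 80 in satellite glia (median 0.00) and 3 of 80 in fibroblasts (median 0.01), and lower for 0 in each. The nuclear RNA Malat1 stood at 9497 CPM in cKO and 6925 CPM in flox neurons, and the heat shock gene Hspa1a at 133 and 16.8 CPM. In myelinating Schwann cells Malat1 stood at 23737 and 17725 CPM, and Hspa1a at 975 and 268 CPM. Their part in the members' ratios was not tested.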

How the data were processed

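The deposited tables hold UMI counts per gene and cell barcode from droplet-based 3′ libraries, 1 per genotype. Per the file headers, cellranger 6.1.2 made these counts, while the submitters' processing notes list Cell Ranger 5.0.1, Scanpy and mm10. Intron counting and removal of free RNA or doublets before deposit are not given in the sources used here, and no correction for free RNA was made. Kept cells had 1000 UMIs and 500 genes or more, and no more than 15% of mitochondrial UMIs. Scrublet's automatic threshold called 2 cKO and 0 flox doublets, so top-scoring cells were taken out at a rate of 0.8% per 1000 (569 cKO and 607 flox cells).

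Each cell was scored as the mean log-scaled level of a class's markers over the mean of the 80 highest cells (40 for neuron subtypes). It was gated at 0.4 or more and 0.1 above the next class, with glia split at 0.4 (cycling) and 0.5 (myelinating, satellite). Of the cells, 624 cKO and 357 flox lay within 0.05 of a gate. The somatostatin gate found 2 of 7 markers in at least 25% of its cKO cells, and the Trpm8 gate was led by S100a9 and S100a8, genes of neutrophils, so neither is described. UMIs were summed by class and library and scaled to the class total. Levels have exact Poisson, shares Clopper-Pearson and ratios conditional binomial intervals at 95%. No test between genotypes was made, since cells and genes are not replicates. Ratios were run before use on simulated Poisson counts, the model the intervals assume. That run could not check spread between cells or animals.

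The members and the lists were chosen with earlier results of these data known. Genes named between genotypes were the 3 highest and 3 lowest members of each main class with at least 100 UMIs, by the interval bound nearest to 0. Also named were the 5 members with the widest range over classes and the highest member of each complex in neurons. Other members were named after their values were seen. Lengths came from GENCODE vM21 on GRCm38 (32235 of 32285 identifiers found) and start regions from RefSeq. Alternatives covered gates, doublets, scaling (TMM factors, another total, means over cells, thinning to 1000 UMIs), depth and count minimums. edgeR 4.0.16 (R 4.3.3) gave the TMM factors, scanpy 1.11.5 ran Scrublet, and scipy 1.17.1, numpy 2.4.6, pandas 2.3.3 and matplotlib 3.10.9 were used under Python 3.11.15.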

Additional observations from a re-analysis of the deposited data

Results flagged for a closer look

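Ndufa4l2 moved one way in one class and the other way in another. In neurons the log2 ratio of cKO over flox was 0.51, from 77 cKO and 72 flox UMIs, and in endothelial cells it was -1.0, from 46 cKO and 215 flox UMIs. In fibroblasts it was -0.70, from 124 cKO and 365 flox UMIs, and in mural cells 0.32 (0.13 to 0.51), from 356 and 598 UMIs. The differences between classes were not tested. The neuron level is low, at 1.48 CPM in cKO and 1.04 CPM in flox cells, and a UMI was found in 2.15% and 3.64% of neurons. In the endothelial cells the pericyte genes summed to 267 CPM in cKO and 507 CPM in flox cells, and their part in the endothelial value was not tested.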

How the results depend on the processing

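With 1 library per genotype no replicate could be left out. No paired analysis was possible because each genotype has 1 library. In neurons the members' summed log2 ratio of cKO over flox (0.11) was 0.10 with TMM factors, 0.15 with mitochondrial, ribosomal protein and haemoglobin UMIs left out of the total, 0.22 as a mean over cells, 0.20 after thinning and 0.10 in neurons of at least 10000 UMIs (0.0991, chosen after seeing the data). In myelinating Schwann cells (0.23) these settings gave 0.15 with TMM factors, 0.29 with the other total and 0.25 after thinning, and 0.21 in cells of at least 5000 UMIs. In satellite glia (0.19) TMM factors gave 0.29, means over cells 0.23, thinning 0.25 and deeper cells 0.13. In fibroblasts (0.11) values were 0.13 with doublets kept, 0.18 with TMM factors, 0.12 with the other total, 0.19 as a mean over cells, 0.20 after thinning and 0.069 in deeper cells. Neurons over other glia gave 0.44 with the other total and 0.60 as a mean over cells in the cKO library (0.58), and 0.37, 0.48 and, with the stricter gate, 0.57 in the flox library (0.53). Proprioceptors over NP nociceptors gave 1.27 as a mean over cells in cKO cells (1.21), and 1.04 and, over 10000 UMIs, 1.00 in flox cells (0.99). All of these kept their direction. The 16 alternatives to the isoform shares moved by less than the counting interval.

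Between genotypes, members higher in cKO neurons (4) numbered 2 with doublets kept (8.16% of all measured genes), 2 with TMM factors (9.11%) and 11 as means over cells (11.0%). In myelinating Schwann cells (11) there were 6 with TMM factors (10.5%), and 0 in place of 2 lower members with a minimum of 200 UMIs (12.1%). In satellite glia (6) there were 13 with TMM factors (9.56%), 12 after thinning (7.74%) and 3 in deeper cells (9.46%). In fibroblasts (3) there were 5 with doublets kept (8.44%), 6 with TMM factors (10.4%), 7 as means over cells (7.51%) and 11 after thinning (9.45%). There the 1 lower member became 2 with doublets kept (17.3%) and in deeper cells (17.2%), and 3 as means over cells (22.1%) and after thinning (17.6%). The direction turned in mural cells for the sum of all members (1 of 10 settings, range -0.10 to 0.07), complex III (4), complex IV (5) and complex V (1), in macrophages for complex II (1) and in other glia for complex IV (1).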

Other observations

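A small set of neurons gave the members an unusually low share. Neurons under 2.5% were 62 of 3066 in cKO (2.02%) and 163 of 1566 in flox cells (10.4%). They were shallower, with medians of 2463.5 UMIs in cKO and 7925 in flox cells, against 9650 and 49393 in the other neurons. Their median mitochondrial share was 4.17% in cKO and 4.11% in flox cells, against 1.12% and 1.15% in the other neurons. Their ribosomal protein share was 4.13% and 2.69%, against 10.1% and 8.47%. The nuclear RNA Malat1 stood at 29196 and 23951 CPM, against 9371 and 6543 CPM. These cells were chosen by the share itself, so the values are descriptions. Their part in the neuron ratios as a mean over cells or after thinning was not tested.

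In cKO neurons of 5000 to 10000 UMIs the median share was 4.89% (660 cells), and in flox neurons of the same depth it was 1.85% (80 cells). Above 50000 UMIs the medians were 3.97% in 202 cKO and 4.01% in 679 flox neurons.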
